A study of Mus musculus with 4 samples.

Results

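Epicardial cells form the mesothelial sheet on the outer surface of the heart. In single-nucleus RNA sequencing of mouse hearts, 981 of 34165 filtered nuclei were taken as epicardial: 137 in the control library on chow, 301 with YAP5SA on chow, 355 in the control on high-fat diet (HFD) and 188 with YAP5SA on HFD. A nucleus was taken when it held at least 3 unique molecular identifiers (UMIs) from at least 2 of the 7 genes Wt1, Msln, Upk3b, Muc16, Lrrn4, Upk1b and Bnc1. It also had to carry less than 0.5% of its UMIs in the 6 cardiomyocyte genes Ttn, Ryr2, Trdn, Ctnna3, Rbm20 and Tnnt2, at least 500 detected genes and at most 5% mitochondrial UMIs. These 13 genes chose the nuclei, so their levels are given as a description with no test.

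The libraries came from whole hearts of wild-type mice at postnatal day 12. At postnatal day 7 the pups had received saline (control) or AAV9-cTNT-YAP5SA, a viral vector that expresses an altered form of the transcriptional co-activator YAP from the cardiac troponin T promoter, which is active in cardiomyocytes. The mothers were on chow or on HFD for 5 days, which gave 4 groups of 1 library each. The sources used here do not say how many hearts each library holds. Since the control was saline, the virus and its cargo cannot be told apart. For YAP5SA on chow and control on HFD the treatment label names the other diet than the title: the vector is the same in every label, while diet was taken from the titles. By the treatment labels all controls would be on chow and all YAP5SA mice on HFD, and vector and diet cannot then be told apart.

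The epicardium is known as a source of fibroblasts and vascular mural cells in the embryo, through an epithelial to mesenchymal transition, and of secreted signals such as retinoic acid and fibroblast growth factors. After birth it is a quiet epithelium that turns its embryonic programme on again after injury. YAP binds DNA through TEAD factors. The Hippo kinases Lats1 and Lats2 hold it out of the nucleus, and Ccn1, Ccn2 and Ankrd1 are widely used as its target genes.

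The 4 libraries held between 43408234 and 61191454 UMIs in 6977 to 11158 barcodes. Where 4 values follow each other, the chow libraries come first and then the HFD libraries, each time the control before YAP5SA. The epicardial nuclei carried a median of 4550, 3519, 4320 and 3645 UMIs, and their sums came to 722986, 1436698, 1977374 and 814734 UMIs. Their median mitochondrial share was 1.47%, 1.14%, 1.18% and 0.658%, above that of the fibroblast nuclei of the same libraries (0.488%, 0.308%, 0.470% and 0.172%). Both controls were thus deeper per nucleus and richer in mitochondrial UMIs than the YAP5SA library on the same diet. The YAP5SA library on chow was the only one with few Xist UMIs (298, against 106671 to 154625) and many Ddx3y UMIs (4760, against 1 to 17). Sex therefore moves with that library, and its part in the results was not tested. Library pairs shared 11 to 34 barcodes, none of them epicardial in both libraries.

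The gate genes were frequent in the chosen nuclei. Wt1, a zinc finger transcription factor of the epicardium, stood at 858, 655, 779 and 566 UMIs of the gene per 1000000 UMIs of the summed nuclei (CPM, counts scaled to that total), with a UMI in 94.9%, 89.0%, 94.1% and 80.3% of them. In the fibroblast nuclei of the same libraries Wt1 stood at 11.7, 8.93, 14.8 and 6.06 CPM. Muc16, a membrane mucin of mesothelial surfaces, stood at 1245, 828, 873 and 749 CPM, and mesothelin (Msln) at 520, 480, 355 and 346 CPM. The uroplakin genes Upk3b and Upk1b stood at 545, 438, 423 and 295 CPM and at 382, 434, 310 and 469 CPM. Lrrn4 and the transcription factor gene Bnc1 were the sparsest, at 97.4 to 180 CPM and 129 to 201 CPM. Within each diet Wt1, Muc16, Msln, Upk3b and Lrrn4 were lower with YAP5SA, and Upk1b was higher. In fibroblast nuclei no gate gene passed 14.8 CPM. Those nuclei were chosen to hold fewer than 2 UMIs over the gate genes, so their low levels were set in advance.

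Most chosen nuclei lay well inside the limits. The median nucleus held 17, 12, 14 and 10 UMIs of the gate genes, and nuclei at exactly 3 UMIs numbered 8, 17, 21 and 13. Just outside, 20, 21, 38 and 9 nuclei had 2 UMIs from 2 gate genes, and 55, 36, 127 and 11 had 3 or more UMIs from a single gate gene. A further 19, 52, 52 and 36 nuclei met the gate but exceeded the cardiomyocyte limit. The highest cardiomyocyte share inside was 0.476% of a nucleus's UMIs, and the lowest among these nuclei was 0.533%.

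The label was checked against markers of the other cells in the heart. Summed over 4 genes each, lymphatic, lymphocyte and Schwann cell markers reached at most 22.3 CPM in the epicardial nuclei of any library. Macrophage markers (5 genes) summed to 89.9 to 201 CPM and mural cell markers (5 genes) to 105 to 204 CPM. Endothelial markers (6 genes) summed to 964, 618, 887 and 776 CPM, which was 17.5% to 31.4% of their level in endothelial nuclei and below their level in fibroblast nuclei. Endocardial markers (3 genes) summed to 1111, 688, 832 and 997 CPM. This was 39.0% to 51.7% of their level in endocardial nuclei and, unlike the endothelial markers, above fibroblast nuclei in every library (693, 566, 646 and 515 CPM). At least 3 UMIs from at least 2 endocardial genes were held by 50.4%, 27.9%, 45.4% and 37.2% of the epicardial nuclei. For the endothelial genes these shares were 38.69%, 18.94%, 32.96% and 25.53%. Within each diet both kinds of share were higher in the control than with YAP5SA, and the cause was not tested. In a wider set of 6 endocardial genes, tested against fibroblast nuclei as described below, 1 was higher and 4 lower. Their median log2 fold was -1.53, so the sum of 3 genes does not stand for the set. Among 8 cardiomyocyte genes outside the rule the sum was 900 to 1246 CPM, against 748 to 1111 CPM in fibroblast nuclei. No gene of the endothelial, endocardial, fibroblast or cardiomyocyte lists was at 0 in any library. The 8 fibroblast markers were also above their level in fibroblast nuclei: they summed to 6481, 5653, 6304 and 5264 CPM, against 3737 to 5022 CPM. The collagen genes Col3a1, Col1a1 and Col1a2 carried this. Col3a1 stood at 3710, 3262, 3274 and 3005 CPM in epicardial nuclei and at 1080 to 1918 CPM in fibroblast nuclei. Pdgfra, the receptor gene that marks cardiac fibroblasts, went the other way, at 51.5 to 74.8 CPM against 176 to 281 CPM.

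The share of epicardial nuclei did not move one way with the vector. It was 2.15% of all filtered nuclei in the control on chow (exact 95% binomial interval 1.81% to 2.54%) and 3.47% (3.10% to 3.88%) with YAP5SA on chow. On HFD it was 4.23% (3.81% to 4.68%) in the control and 1.75% (1.51% to 2.02%) with YAP5SA. YAP5SA thus stood above its control by 1.32 percentage points on chow and below it by 2.47 percentage points on HFD, and within neither diet did the intervals overlap. The intervals cover counting error only, and with 1 library a group neither difference has a replicate check. Of nuclei under the cardiomyocyte limit the shares were 5.98%, 9.49%, 7.70% and 4.04%, in the same direction on each diet. Fewer epicardial cells, a different yield of surface nuclei and a change in the other nuclei cannot be told apart in a share. Depth moves with the share only in part: with each nucleus thinned to 2000 UMIs the shares were 1.91%, 3.06%, 3.49% and 1.52%.

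**Figure D1:**
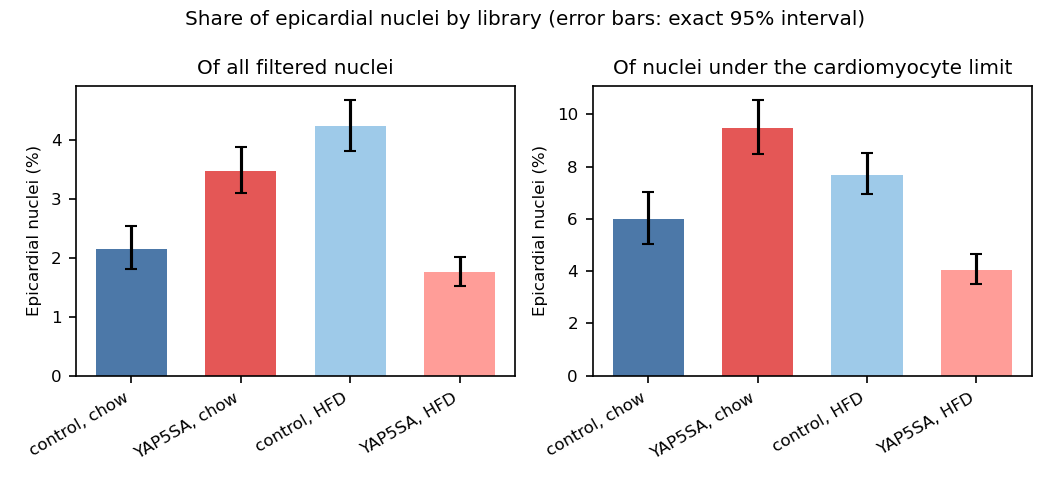
Share of epicardial nuclei in each library, in percent of all filtered nuclei (left) and of nuclei under the cardiomyocyte limit (right), with exact 95% binomial intervals as error bars. YAP5SA on chow (3.47%) stood above its control (2.15%), and YAP5SA on HFD (1.75%) below its control (4.23%).

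What these nuclei expressed beyond the gate genes was measured against the 9826 fibroblast nuclei of the same libraries (1556, 1753, 3324 and 3193). These were gated on fibroblast markers and held fewer than 2 UMIs over the epicardial gate genes. The 8 sums were fitted with edgeR's quasi-likelihood test with the library as a block. Of 14672 genes tested, 1523 (10.4%) were higher in epicardial nuclei and 1220 (8.32%) lower, at an adjusted p under 0.05 and at least 2-fold. The median log2 fold over all genes was -0.05. Because the nuclei were chosen by mesothelial genes, genes that travel with those are a description of the chosen cells, and the p-values measure only the spread between these 4 pairs of sums.

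Other mesothelial genes were the strongest group. Of 27 tested, 23 were higher and none lower, with a median log2 fold of 5.21. Gpm6a, a membrane glycoprotein gene, stood at 1826, 1598, 1984 and 1778 CPM against 29.9 to 61.2 CPM in fibroblast nuclei (log2 fold 5.46, SE 0.20, edgeR adjusted p = 1.39e-08). Plxna4, a semaphorin receptor gene, stood at 4423, 4673, 3882 and 4410 CPM against 229 to 327 CPM (4.12, SE 0.17, adjusted p = 2.89e-08). Both held a narrow range over the 4 libraries, with no overlap with fibroblasts. Rspo1, an enhancer of Wnt signalling, had a log2 fold of 7.60, and the epithelial keratin genes Krt19, Krt8 and Krt18 had 6.99, 6.76 and 5.77. The retinoic acid synthesis gene Aldh1a2, an embryonic epicardial marker, did not reach 2-fold: it stood at 314, 420, 252 and 437 CPM against 218 to 302 CPM (log2 fold 0.55).

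The genes with the largest folds were ranked among those with at least 100 CPM in the higher population. After the predicted gene Gm6260 (log2 fold 9.73) came Slc26a3, an anion exchanger (8.26), Il18r1, a receptor subunit for interleukin 18 (8.18), and Vtcn1, an immune checkpoint ligand (7.78). Rspo1, the aminopeptidase gene Lvrn (7.49), the vesicle motor gene Myo5b (7.31) and Cybrd1, a ferric reductase (7.30), followed. Gm29266, Bst1, Krt19 and Lrp2, an endocytic receptor of epithelia, completed the 12, at 6.84 to 7.16. Il18r1 was at 318, 643, 317 and 372 CPM in epicardial nuclei and at 0.798 to 2.98 CPM in fibroblast nuclei. Under the same limit of 100 CPM, the genes lowest in epicardial against fibroblast nuclei were the leptin receptor gene Lepr (-2.84), the noncoding 8030451A03Rik (-2.78) and the matrix genes Tnc (-2.75) and Col8a1 (-2.72). Gpc6, Abca8a, Vcan and Lama2, all abundant in fibroblasts, lay between -2.48 and -2.41.

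Epithelial junction and polarity genes were higher as well, 12 of 26 tested against 1 lower (median log2 fold 0.74). The tight junction gene Cgn stood at 74.7, 65.4, 62.2 and 72.4 CPM against at most 0.423 CPM (log2 fold 7.67, SE 0.22). Crb2 and Pard6b of the apical polarity complexes had log2 folds of 6.43 and 5.02, P-cadherin (Cdh3) 6.29 and the claudin gene Cldn15 4.92. Tjp1, the widely expressed tight junction scaffold, stood at 202, 202, 200 and 203 CPM in epicardial nuclei. It did not reach 2-fold against fibroblast nuclei (log2 fold 0.52). Genes of the mesenchymal transition went the other way, with 7 of 19 lower and 1, S100a4, higher. Zeb2 and Zeb1, repressors of epithelial genes, had log2 folds of -1.65 and -1.51, Postn -2.38 and Pdgfrb -1.97. Snai1 and Snai2 were also lower, at or under 6.07 CPM in every epicardial sum, while vimentin (Vim) did not differ by 2-fold (0.17).

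Among 19 epicardial transcription factors tested, 9 were higher and 3 lower (median 0.82). Tbx18, an embryonic epicardial T-box factor, stood at 476, 395, 275 and 448 CPM against 55.4 to 62.0 CPM (log2 fold 2.81, SE 0.14, edgeR adjusted p = 9.76e-08). The higher genes also included Gata5 (5.80), Klf5 (3.05), Bnc2 (2.85), Tbx5 (2.26), Meis2 (1.61), Osr1 (1.26) and Gata6 (1.02). Tbx20 (-1.53), Mecom (-1.89) and Nr2f1 (-1.66) were lower. Tcf21, used in the fibroblast gate and so not tested, stood at 23.5 to 36.2 CPM against 38.9 to 101 CPM.

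Basement membrane genes divided by chain, with 13 of 28 higher and 8 lower (median 0.67). Fras1, which anchors epithelia to the basement membrane, stood at 797, 1153, 645 and 1052 CPM against 10.4 to 13.2 CPM (log2 fold 6.30, SE 0.21). The laminin chain genes Lamc3, Lama3 and Lama5 had log2 folds of 3.58, 3.24 and 3.17, and nephronectin (Npnt) 4.18. The collagen chain genes Col4a4 and Col4a3 were higher at 1.68 and 1.18. Lama2 (-2.41), Col15a1 (-2.17) and perlecan (Hspg2, -1.13) were lower, and Col4a1 missed the 2-fold limit at -0.95. Of 15 hyaluronan genes 2 were higher, Has1 (2.15) and the hyaluronan receptor gene Cd44 (1.53), and 7 lower, among them Has2 (-2.85) and Tnfaip6 (-3.04). Of 21 fibrillar matrix genes 3 were higher (Thbs2, Lox and Sparc) and 9 lower.

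**Figure D2:**
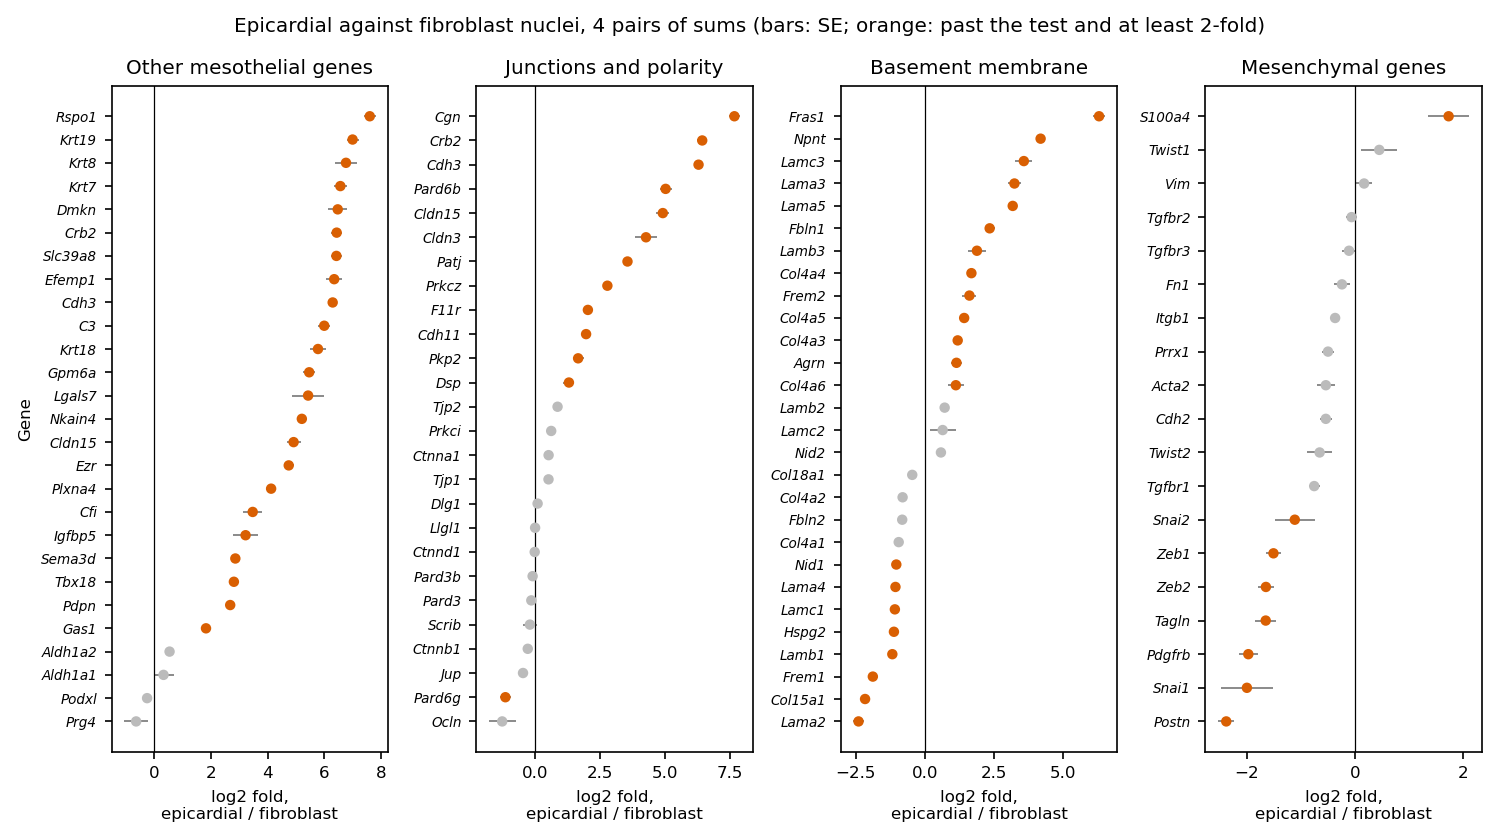
Log2 fold of epicardial against fibroblast nuclei (horizontal axis, point with SE bar) for the tested genes of 4 lists, orange where the gene passed the test at 2-fold or more. Nearly all other mesothelial genes and many junction genes lay to the right (Rspo1 7.60, Cgn 7.67), basement membrane genes fell on both sides (Fras1 6.30, Lama2 -2.41) and mesenchymal genes lay mostly to the left (Postn -2.38).

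Secreted factors attributed to the epicardium were mixed: 15 of 47 tested were higher and 11 lower (median 0.23). Slit3, a guidance ligand, stood at 2148, 2793, 2071 and 2537 CPM against 181 to 409 CPM (log2 fold 3.16, SE 0.27, edgeR adjusted p = 6.58e-06). The semaphorin genes Sema3e, Sema3d and Sema3c had log2 folds of 5.07, 2.87 and 1.81, Wnt5a 4.15, Bmp7 4.29 and Fgf9 3.48. Pdgfd (2.65), the macrophage growth factor gene Csf1 (2.19) and the alarmin Il33 (3.33) were higher too. Nrg1 (-2.22), Ntn1 (-1.86) and Edn1 (-1.84) were lower than in fibroblast nuclei. Complement and inflammation genes had 13 of 31 higher and 2 lower (median 0.90). C3, the central complement component, stood at 811, 695, 332 and 319 CPM against 4.02 to 12.1 CPM (log2 fold 5.99), and C4b, C1s1 and Serping1 had 4.62, 3.73 and 2.32.

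Receptors and pathway genes differed less. Of 28 growth factor receptors 5 were higher, namely Bmpr1b (5.00), the hepatocyte growth factor receptor Met (4.18), the neuregulin receptors Erbb4 (2.05) and Erbb3 (1.54) and the hedgehog receptor Ptch1 (1.07), and 4 were lower. Of 29 Hippo pathway genes 3 were higher, Wwc1 (5.19), Amotl2 (1.40) and Wwc2 (1.28), and 2 were lower, Tead2 (-1.09) and Frmd6 (-1.20), which is near the shares over all genes (10.4% and 8.32%). Yap1 itself stood at 119, 128, 119 and 137 CPM in epicardial nuclei and at 103 to 114 CPM in fibroblast nuclei, with no rise in the cardiomyocyte nuclei (135, 105, 122 and 119 CPM). The sources used here do not say whether reads of the YAP5SA cargo were counted under Yap1, so Yap1 checks no label. Of 20 YAP target genes 5 were higher (Dock5, Crim1, Igfbp3, F3 and Amotl2) and 3 lower (Axl, Ccn2 and Nuak2), with a median of 0.11. Without the library block, Col8a1, Tnc and 8030451A03Rik among the 24 genes with the largest folds missed the threshold.

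YAP5SA and control libraries were then compared within the epicardial nuclei, 2 libraries against 2, with edgeR's quasi-likelihood test on the sums. Of 10896 genes tested, 17 (0.156%) rose and 9 (0.0826%) fell at a Benjamini-Hochberg adjusted p under 0.05. At an unadjusted p under 0.05, 654 were higher and 513 lower, and the median log2 fold was 0.00. All 26 genes had the same sign on both diets. Each arm holds both titled diets, the YAP5SA arm holds the library with few Xist UMIs, and the p-values measure only the spread between the libraries of an arm. All 26 calls were lost with at least 1000 genes and at most 1% mitochondrial UMIs a nucleus (9024 genes tested), where Col8a1 came nearest with a log2 fold of 3.38 (edgeR adjusted p = 0.0523) and Itgbl1 had 2.34 (adjusted p = 0.0864). The 1% limit lay below the median mitochondrial share of the epicardial nuclei (1.47%, 1.14%, 1.18% and 0.658%) in all libraries but YAP5SA on HFD. It thus left out most epicardial nuclei of those libraries, and the part of the smaller sums in the lost calls was not tested. Without nuclei called as doublets 6 rose and 1 fell: Ankrd1, Adam23, Angptl7, Col8a1, Itgbl1 and Gm38407, and Dach1.

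Itgbl1 codes for a secreted protein with integrin-like repeats (chromosome 14, 123659971 to 123975618, plus strand, GRCm38). It stood at 165, 700, 185 and 1701 CPM, both YAP5SA libraries above both controls. A UMI of Itgbl1 was present in 28.5%, 39.9%, 23.4% and 65.4% of the epicardial nuclei, and the log2 fold was 2.80 (SE 0.35, edgeR adjusted p = 0.0147). In fibroblast nuclei Itgbl1 stood at 170, 124, 188 and 195 CPM. Adam23, a membrane protein of the disintegrin family (chromosome 1, 63445891 to 63596276, plus strand), stood at 4.15, 49.4, 3.54 and 65.1 CPM and rose by a log2 fold of 3.92 (SE 0.39, edgeR adjusted p = 0.00436). These rested on 3 and 7 UMIs in the controls and on 71 and 53 with YAP5SA. By single libraries the log2 ratio of Adam23 was 3.36 on chow (exact counting interval 1.97 to 5.89) and 4.11 on HFD (3.06 to 5.58). In fibroblast nuclei Adam23 stood at 12.0, 14.8, 21.9 and 14.3 CPM, with no such step.

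Ankrd1, which codes for a muscle ankyrin repeat protein and is a YAP target (chromosome 19, 36111961 to 36120099, minus strand), stood at 31.8, 148, 26.3 and 160 CPM. The YAP5SA libraries lay well above both controls (log2 fold 2.47, SE 0.23, edgeR adjusted p = 0.00436). Other populations moved alike: fibroblast nuclei stood at 35.9, 185, 33.3 and 126 CPM, endothelial nuclei at 42.7, 179, 33.8 and 138 CPM and macrophage nuclei at 87.6, 255, 79.3 and 165 CPM. Cardiomyocyte nuclei, the source of most Ankrd1 UMIs, stood at 1017, 2735, 784 and 1571 CPM. Free RNA and expression in the epicardial cells cannot be told apart for this gene. A UMI of Ankrd1 was present in 13.9%, 32.9%, 13.2% and 29.3% of the epicardial nuclei. A single nucleus held 50 of the 213 UMIs in YAP5SA on chow and 37 of the 130 in YAP5SA on HFD. The part of such nuclei in the rise of Ankrd1 was not tested. Ccn2, a matricellular protein gene and YAP target, stood at 15.2, 129, 13.1 and 46.6 CPM (log2 fold 2.74, SE 0.46, edgeR adjusted p = 0.0476). It was higher still in fibroblast nuclei, at 35.2, 363, 40.1 and 187 CPM. Epicardial Ccn2 was 44.9%, 38.4%, 33.1% and 31.1% of its level in cardiomyocyte nuclei. The part of free RNA in the rise of Ccn2 was not tested.

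Ankrd1 and Ccn2 were the only genes that rose among the 19 YAP targets tested, with none falling and a list median of 0.11 against 0.00 over all genes. At an unadjusted p under 0.05, 6 were higher and none lower, beside 654 and 513 of all 10896 genes. Among the 6 was Ccn1, at 20.7, 143, 20.7 and 45.4 CPM (edgeR adjusted p = 0.0840). Epicardial Ccn1 was 169%, 85.3%, 116% and 68.6% of its level in cardiomyocyte nuclei, and the part of free RNA was not tested. Of 29 Hippo pathway genes tested none passed in either direction, and 3 were higher and 1 lower at an unadjusted p under 0.05.

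Angptl7, an angiopoietin-like secreted protein gene, stood at 24.9, 116, 23.3 and 85.9 CPM (log2 fold 2.12, SE 0.26, edgeR adjusted p = 0.0147) and at 7.18 to 14.1 CPM in fibroblast nuclei. Tpm1, coding for alpha-tropomyosin, stood at 397, 874, 446 and 997 CPM and was found in 82.5%, 89.0%, 83.1% and 89.4% of the nuclei (1.18, SE 0.17, adjusted p = 0.0263). Ncam1, a cell adhesion molecule gene, stood at 141, 312, 132 and 304 CPM (1.21, SE 0.17, adjusted p = 0.0263). In each of these genes both YAP5SA libraries exceeded both controls. Fibin stood at 8.30, 34.1, 6.57 and 51.6 CPM. The sodium leak channel gene Nalcn stood at 26.3, 71.7, 14.2 and 107 CPM, and Pdzd2, a PDZ domain protein gene, at 278, 519, 215 and 619 CPM. Several of these genes were frequent in cardiomyocyte nuclei thinned to 2000 UMIs. Tpm1 was found there in 93.1%, 94.7%, 92.2% and 92.0% of nuclei and Pdzd2 in 92.3%, 95.6%, 76.8% and 95.1%. Ncam1 was found in 22.2%, 47.8%, 22.3% and 39.9% of them, more often with YAP5SA on both diets, and Lbh in 44.7%, 59.4%, 27.2% and 52.4%. The part of free RNA in these rises was not tested. Outside the naming rule, and chosen after their values were seen, 4 more genes rose: Lbh, the neurotrophin gene Bdnf, Gm41764 and Gm38407. Bdnf stood at 27.7, 84.2, 10.1 and 77.3 CPM, and the fibroblast values of 14.4, 86.9, 13.3 and 70.2 CPM moved with it.

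Col8a1, a short-chain collagen gene (chromosome 16, 57624258 to 57754737, minus strand), stood at 6.92, 274, 31.9 and 176 CPM, with a log2 fold of 3.33 (SE 0.41, edgeR adjusted p = 0.0147). It was far more abundant in fibroblast nuclei, at 190, 1502, 175 and 1420 CPM. In YAP5SA on chow only 32 of 301 epicardial nuclei held a Col8a1 UMI, and a single nucleus held 173 of the 394. The 5 nuclei with the most UMIs carried 82.0% of the total there and 73.4% in YAP5SA on HFD, so the rise rested on few nuclei. Col8a1 was the only one of 26 fibrillar matrix genes tested that passed, against a list median of 0.08. The noncoding genes Sorbs2os and Gm12153 also rose, to 82.8 and 89.6 CPM and to 27.1 and 40.5 CPM with YAP5SA. Both were far more abundant in cardiomyocyte nuclei with YAP5SA, at 1576 and 2296 CPM and at 358 and 420 CPM, and the part of free RNA in their rise was not tested.

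For the genes that rose, the 250 bases before the RefSeq start were searched for the TEAD core motif GGAATG or its reverse complement CATTCC, on both strands. Of 17 genes, 13 had an entry in the promoter table, and 5 of them held a match: Ankrd1, Tpm1, Fibin, Pdzd2 and Bdnf. Bdnf counts through 2 of its 7 windows. Over all 27025 genes with such windows 14.4% held a match in at least 1 window, and of all 32851 windows 12.6% did. Of the 9 genes that fell, 8 had an entry and none held a match. Shown here are 4 promoters with a match, since they carry the motif, and those of Itgbl1 and Adam23, which rose in epicardial but not in fibroblast nuclei and held none. The sequences are from RefSeq, GRCm38.p6, 5′ to 3′ along the gene, with the motif in capitals.
Ankrd1, chr19:36119845-36120094, minus strand: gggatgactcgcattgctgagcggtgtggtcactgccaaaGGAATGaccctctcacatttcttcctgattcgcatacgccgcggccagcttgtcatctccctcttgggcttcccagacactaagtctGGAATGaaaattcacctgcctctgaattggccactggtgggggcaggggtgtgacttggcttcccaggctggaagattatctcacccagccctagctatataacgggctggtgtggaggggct
Tpm1, chr9:67049214-67049463, minus strand: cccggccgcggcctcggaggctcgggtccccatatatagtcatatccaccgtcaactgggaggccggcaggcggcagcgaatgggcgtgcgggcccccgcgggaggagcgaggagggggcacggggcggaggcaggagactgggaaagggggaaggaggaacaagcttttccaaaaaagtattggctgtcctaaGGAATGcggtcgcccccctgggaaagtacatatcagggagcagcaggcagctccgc
Fibin, chr2:110362994-110363243, minus strand: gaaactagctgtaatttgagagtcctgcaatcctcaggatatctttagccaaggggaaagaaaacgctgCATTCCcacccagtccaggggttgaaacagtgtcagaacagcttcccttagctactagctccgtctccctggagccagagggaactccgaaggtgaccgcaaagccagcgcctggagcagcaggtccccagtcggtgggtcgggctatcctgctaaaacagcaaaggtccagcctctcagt
Pdzd2, chr15:12739893-12740142, minus strand: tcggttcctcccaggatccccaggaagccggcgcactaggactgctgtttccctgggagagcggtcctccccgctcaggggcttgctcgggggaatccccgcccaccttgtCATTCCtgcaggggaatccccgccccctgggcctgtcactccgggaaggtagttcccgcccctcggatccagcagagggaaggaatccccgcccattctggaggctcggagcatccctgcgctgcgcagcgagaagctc
Itgbl1, chr14:123659890-123660139, plus strand: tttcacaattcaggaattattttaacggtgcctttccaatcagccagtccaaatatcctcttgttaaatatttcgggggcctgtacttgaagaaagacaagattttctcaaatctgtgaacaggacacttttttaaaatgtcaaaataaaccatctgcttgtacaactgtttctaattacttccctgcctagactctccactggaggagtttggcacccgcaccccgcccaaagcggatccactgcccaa
Adam23, chr1:63445641-63445890, plus strand: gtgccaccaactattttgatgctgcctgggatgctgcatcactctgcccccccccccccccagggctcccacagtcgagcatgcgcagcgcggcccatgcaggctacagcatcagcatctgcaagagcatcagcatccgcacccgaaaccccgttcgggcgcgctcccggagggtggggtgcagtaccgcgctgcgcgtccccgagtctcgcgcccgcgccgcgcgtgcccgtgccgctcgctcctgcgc
The Ankrd1 matches began 210 and 123 bases before the start, that of Tpm1 56 bases, that of Fibin 181 and that of Pdzd2 139. A match is a run of letters and no measured binding.

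The most widely expressed gene that fell was Cdh12, a classical cadherin gene (chromosome 15, 20449265 to 21589533, plus strand). It stood at 1072, 327, 797 and 400 CPM and was found in 74.5%, 46.8%, 70.7% and 48.9% of the epicardial nuclei. Both controls lay above both YAP5SA libraries, and Cdh12 fell by a log2 fold of 1.33 (SE 0.20, edgeR adjusted p = 0.0368). It hardly appeared elsewhere, at 4.72 to 22.1 CPM in fibroblast and 1.55 to 5.81 CPM in cardiomyocyte nuclei. In fibroblast nuclei thinned to 2000 UMIs Cdh12 was found in 2.04%, 0.745%, 1.41% and 0.479%, so it was lower with YAP5SA there on both diets as well. Against fibroblast nuclei Cdh12 was 5.99 log2 units higher. Sdk1, a synaptic adhesion gene of the immunoglobulin family, stood at 682, 269, 671 and 347 CPM (edgeR adjusted p = 0.0464). Tango6 stood at 194, 41.8, 181 and 76.1 CPM (adjusted p = 0.0441), while fibroblast nuclei stayed at 76.0 to 91.6 CPM.

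Mybpc1, a myosin binding protein gene, stood at 23.5, 0.696, 25.3 and 1.23 CPM, on 17, 1, 50 and 1 UMIs. The 17 lay in 8 nuclei and the 50 in 24 nuclei, while every other population was at or below 0.997 CPM in all libraries. By single libraries the log2 ratio was -4.54 on chow and -3.79 on HFD, with exact counting intervals of -10.46 to -2.40 and -9.70 to -1.82. The test gave an edgeR adjusted p of 0.0173 for Mybpc1. Angpt1, a ligand of the endothelial receptor Tie2 and the only one of 40 secreted factors tested that passed, stood at 60.9, 16.7, 70.8 and 16 CPM (adjusted p = 0.0245). Fibroblast Angpt1 stood at 127, 59.9, 120 and 62.0 CPM, lower with YAP5SA on both diets as well.

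The other genes that fell were also found in other populations and sat in few epicardial nuclei. Dach1, a transcription factor gene, stood at 220, 34.8, 165 and 34.4 CPM (log2 fold -2.43, SE 0.24, edgeR adjusted p = 0.00436). It was lower with YAP5SA in fibroblast nuclei too, at 252, 68.2, 214 and 64.7 CPM, and in endothelial nuclei, at 946, 235, 577 and 275 CPM. In the control on chow 75.5% of the Dach1 UMIs lay in 5 epicardial nuclei. Zfp804b stood at 123, 21.6, 130 and 8.59 CPM and Chrm3, a muscarinic receptor gene, at 55.3, 16, 113 and 20.9 CPM, with 97.8% and 87.5% of the UMIs of the control on chow in 5 nuclei. Rps6ka2, a ribosomal S6 kinase gene, stood at 67.8, 13.2, 85.5 and 18.4 CPM. Thinned to 2000 UMIs, Rps6ka2 was found in 5.34%, 1.46%, 6.16% and 1.70% of epicardial nuclei. In fibroblast nuclei it was found in 15.2%, 15.4%, 15.3% and 11.4%, and its vector effect differed between the populations (below). Endothelial markers moved with these genes, though none of 10 passed, with a list median of -0.91. At an unadjusted p under 0.05, 8 were lower with YAP5SA, beside 513 of all 10896 genes. Of 6 endocardial genes 2 were lower at that level. Leaving out nuclei that held markers of endothelial, lymphatic, mural, macrophage, lymphocyte or Schwann cells kept 17 of the 17 risen and 6 of the 9 fallen genes (78 and 57 called in all). Nuclei with endocardial or fibroblast markers stayed in. Chrm3 and Rps6ka2 then missed the threshold, and Dach1 had too few counts to be tested.

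**Figure D3:**
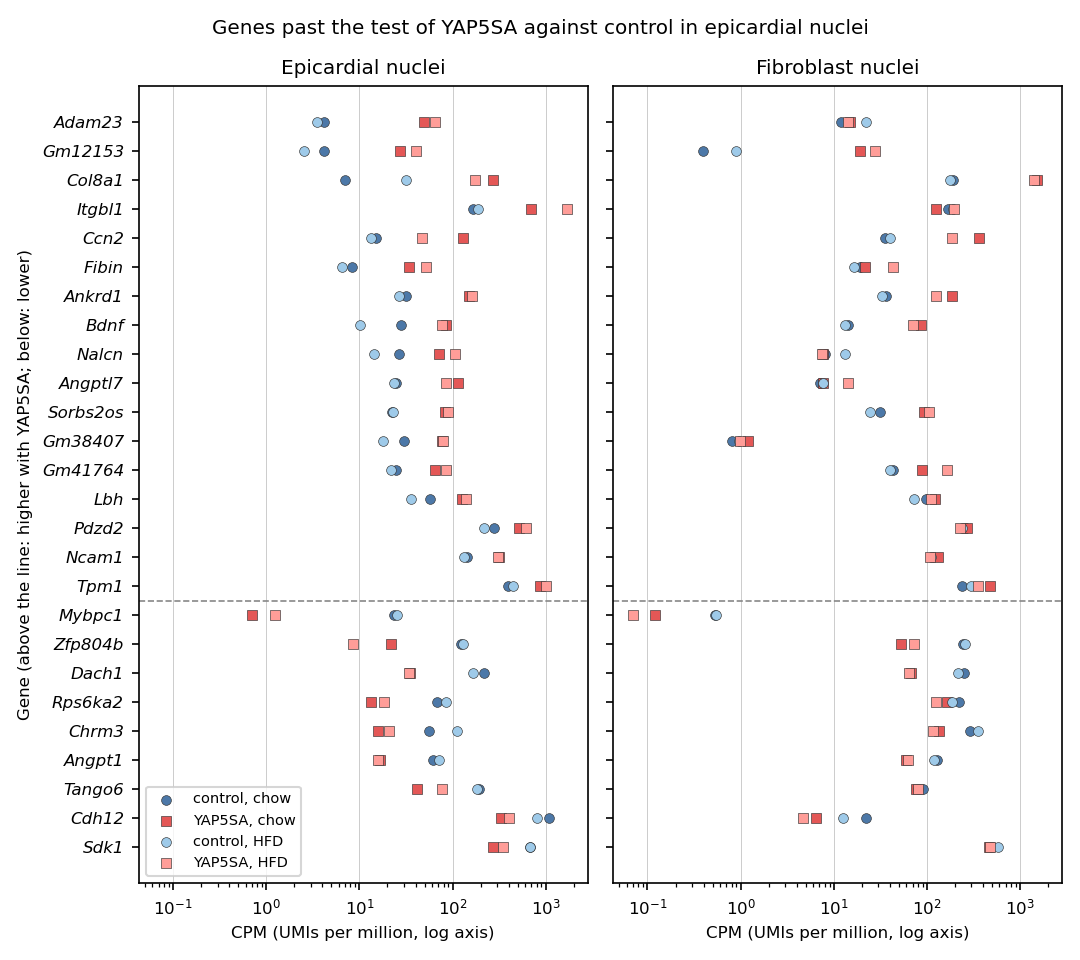
CPM (log axis) of the 26 genes past the test of YAP5SA against control in epicardial nuclei, in epicardial (left) and fibroblast nuclei (right), 1 point per library, circles for controls and squares for YAP5SA. Itgbl1 and Adam23 separate the arms in epicardial but not in fibroblast nuclei, while Ankrd1, Ccn2, Bdnf and Dach1 separate them in both.

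No mesothelial gene (26 tested), epicardial transcription factor (19), junction gene (25), mesenchymal gene (17) or basement membrane gene (27) passed the test of the vector in either direction, with list medians of 0.06, -0.07, -0.01, 0.00 and -0.06. In the simulated data the test recovered 33% of genes changed 2-fold and 89% of those changed 4-fold, with 8 false calls in a simulation of 10896 genes. There every gene had the same relative spread, and the libraries differed only in depth and in the changed genes. The other differences between the real libraries were left out, so these figures need not hold for the real test. The counts also moved with each library. Without the control on chow 165 genes rose and 97 fell, and without YAP5SA on chow 217 and 103. Without the control on HFD 50 rose and 36 fell, and without YAP5SA on HFD 84 and 41.

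Whether the epicardial response differed from that of fibroblasts was tested as an interaction over the 8 sums, a comparison added after the data were seen. Of 15857 genes, 169 (1.07%) had a more positive and 148 (0.933%) a more negative vector effect in epicardial nuclei by edgeR's quasi-likelihood test. Of the 26 genes above 11 were among them, each in the direction of its epicardial change. The 26 were picked on the same epicardial sums that enter this test, so the overlap and the direction are in part built in. The difference in log2 fold was 4.40 for Adam23 (SE 0.45, edgeR adjusted p = 2.42e-07), 2.95 for Itgbl1 (SE 0.20, adjusted p = 4.30e-11) and 2.94 for Nalcn (SE 0.39, adjusted p = 1.70e-05). For Fibin it was 1.82, for Angptl7 1.68, for Pdzd2 1.35, for Lbh 1.21 and for Ncam1 1.16. For Rps6ka2 it was -1.81, for Tango6 -1.51 and for Sdk1 -0.89. Ankrd1, Ccn2, Bdnf, Dach1 and Cdh12 did not pass. By DESeq2 57 and 32 genes passed, without Angptl7, Fibin, Lbh and Sdk1. Without YAP5SA on chow the difference was 1.06 for Angptl7, -1.29 for Rps6ka2 and -0.70 for Sdk1, past the threshold for none of them, and without the control on HFD Fibin missed it.

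**Figure D4:**
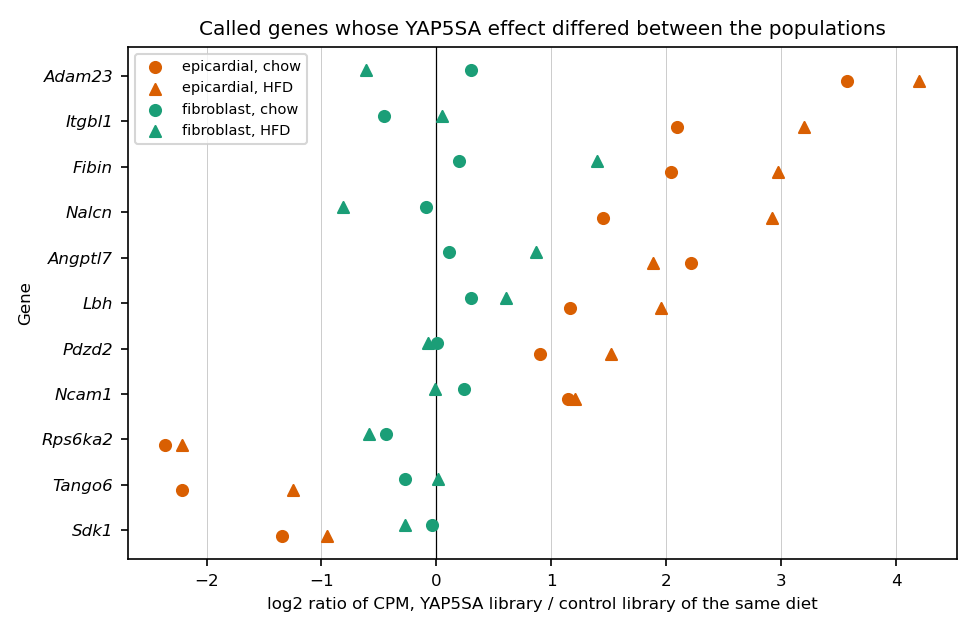
Log2 ratio of CPM, YAP5SA library over the control library of the same diet, for the 11 called genes whose vector effect differed between epicardial (orange) and fibroblast nuclei (green), circles for chow and triangles for HFD. For Itgbl1 the epicardial CPM went from 165 to 700 on chow and from 185 to 1701 on HFD, while fibroblast CPM went from 170 to 124 and from 188 to 195.

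Other genes past the test of the difference, among those of smallest p in each direction, are given by their levels in both populations. Thsd4, which codes for a protein that promotes fibrillin assembly, stood at 621, 833, 706 and 1003 CPM in epicardial nuclei and at 537, 163, 503 and 88.3 CPM in fibroblast nuclei (difference in log2 fold 2.67, SE 0.23, edgeR adjusted p = 1.51e-08). Aldh1a1, a retinaldehyde dehydrogenase gene, stood at 84.4, 143, 66.2 and 158 CPM against 151, 57.4, 112 and 75.2 CPM (2.09, SE 0.21, adjusted p = 2.42e-07). Slit3, given above for epicardial nuclei, stood at 388, 225, 409 and 181 CPM in fibroblasts (1.41). In the other direction, Igfbp5, a binding protein of insulin-like growth factors, stood at 3347, 1366, 2346 and 1726 CPM in epicardial and at 106, 439, 169 and 378 CPM in fibroblast nuclei (-2.36, SE 0.24, adjusted p = 2.42e-07). Sema3e stood at 214, 281, 169 and 130 CPM in epicardial and at 0.665, 15.6, 1.79 and 13.3 CPM in fibroblast nuclei (-3.16). Piezo2, a stretch-gated channel gene, stood at 82.2 to 112 CPM in epicardial nuclei and at 96.2, 404, 96.6 and 356 CPM in fibroblast nuclei (-1.78). Among 21 YAP targets tested Lats2 (0.72) and Nuak2 (1.90) were more positive in epicardial nuclei and none more negative. Among 28 basement membrane genes 4 were more positive and none more negative. Over all genes 1.07% were more positive and 0.933% more negative.

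Of 47 cell cycle genes tested, 13 had a more negative vector effect in epicardial than in fibroblast nuclei and none a more positive one, beside 0.933% and 1.07% over all genes. Top2a, the topoisomerase of dividing cells, stood at 98.2, 82.1, 100 and 63.8 CPM in epicardial and at 91.4, 226, 107 and 267 CPM in fibroblast nuclei (-1.61, SE 0.23, edgeR adjusted p = 3.88e-05). Anln, a cytokinesis scaffold, stood at 62.2, 32.7, 58.2 and 22.1 CPM against 37.4, 102, 44.2 and 102 CPM (-2.29, SE 0.28, adjusted p = 4.71e-06). Within epicardial nuclei none of the 38 tested passed, with a median of -0.33 and 10 lower at an unadjusted p under 0.05, beside 513 of all 10896 genes.

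Nuclei were counted as cycling with at least 2 UMIs over 9 mitotic genes. Thinned to 2000 UMIs, the epicardial share was 19.8% (exact 95% interval 13.4% to 27.7%), 12.8% (9.06% to 17.3%), 15% (11.3% to 19.2%) and 11.4% (7.08% to 17.0%), and the intervals of the arms overlapped on both diets. The unthinned shares were 29.2%, 19.6%, 26.8% and 17.0%. The thinned fibroblast shares were 12.0%, 29.1%, 11.8% and 29.3%, both YAP5SA libraries above both controls, and cardiomyocyte nuclei stood at 5.94%, 11.9%, 6.29% and 10.0%. Thinning left out 6, 27, 14 and 12 epicardial nuclei.

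**Figure D5:**
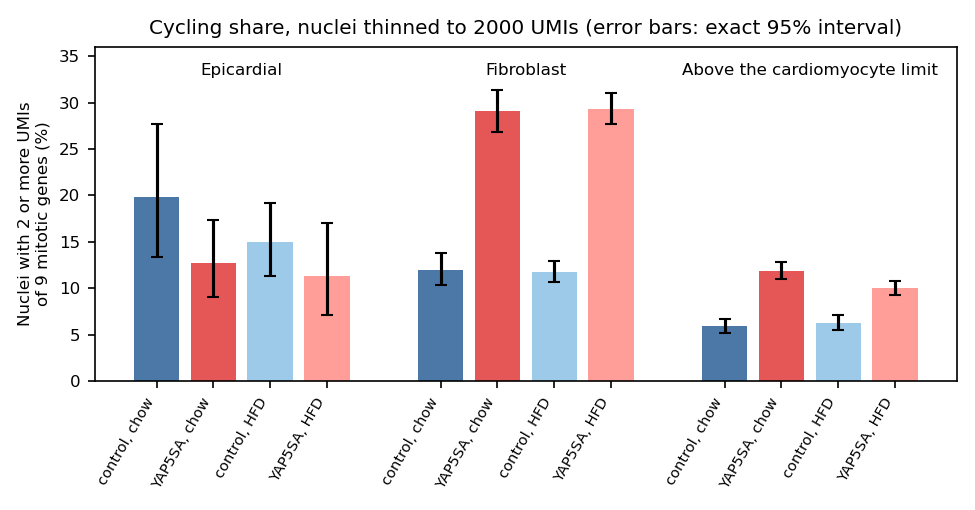
Share of nuclei with at least 2 UMIs of 9 mitotic genes after thinning to 2000 UMIs, in epicardial nuclei, fibroblast nuclei and nuclei above the cardiomyocyte limit of each library, with exact 95% intervals as error bars. Epicardial shares lay between 11.4% and 19.8%, both YAP5SA libraries below both controls, while fibroblast shares went from 12.0% and 11.8% to 29.1% and 29.3%.

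Diet was compared by the titles, again 2 libraries against 2 and added after the data were seen. The vector was not a term in this fit, so differences between the arms counted as spread within a diet. A diet test with the vector as a block was not run. No gene of 10896 passed in either direction (0% called), and 128 were higher and 146 lower on HFD at an unadjusted p under 0.05. DESeq2 also called none. C3 stood at 811 and 695 CPM on chow and at 332 and 319 CPM on HFD, so its chow libraries lay above both HFD libraries, with a log2 fold of -1.22 (SE 0.18, edgeR adjusted p = 0.999). Bst1, coding for a surface enzyme of cyclic ADP-ribose synthesis, stood at 184 and 155 CPM on chow and at 77.4 and 89.6 CPM on HFD, and the exchange factor gene Arhgef26 at 169 and 143 CPM against 65.2 and 84.7 CPM. All 3 are among the 8 genes with the largest lower fold that both arms shared. Single libraries were also set against each other, over 4232 genes with a mean of at least 50 CPM and with no test. On HFD, 38 genes (0.898%) were 2-fold or more higher and 31 (0.733%) lower than on chow between the controls, and 54 (1.28%) and 38 (0.898%) with YAP5SA. In both arms 2 (0.0473%) were higher and 3 (0.0709%) lower. The 2 higher genes were Rasgef1b, at 48.4, 12.5, 103 and 62.6 CPM, and Cemip, which codes for a hyaluronan-binding protein, at 30.4, 39.7, 65.2 and 280 CPM. The 3 lower genes were C3, Nppb and a gene of the classes left out of naming. Nppb, the gene of a natriuretic peptide of cardiomyocytes, stood at 30.4, 154, 15.2 and 60.1 CPM, so it was also higher with YAP5SA on both diets. For the vector, 70 genes (1.65%) were 2-fold or more higher and 67 (1.58%) lower on chow, and 122 (2.88%) and 76 (1.8%) on HFD. Both diets shared 22 (0.52%) and 10 (0.236%) of these. The 8 largest shared folds on the higher side were those of Ankrd1, Angptl7, Col8a1, Itgbl1, Sorbs2os, Ccn2, 8030451A03Rik and Nppb. On the lower side they were those of Dach1, Zfp804b, Tango6, Chrm3, Nrg1, Prkar2b, Emcn and Shank3. Nrg1, which codes for neuregulin, lay at 116, 13.9, 137 and 47.9 CPM, and Emcn, a gene of endothelial cells, at 113, 41.8, 103 and 44.2 CPM, the controls above YAP5SA in both.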

How the data were processed

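Nuclei of 4 whole-heart libraries (10x 3′ v3 chemistry) were counted per gene. Per the submitters' processing notes the authors used Cell Ranger 7.1.0 and mm10. The deposited matrices hold raw UMI counts for 36648 barcodes and 32291 features, 6 of them added sequences. The sources used here do not name the annotation, the use of intronic reads and strand, or any removal of doublets. GENCODE vM21 gave coordinates for 32235 features, and RefSeq (GRCm38.p6) the promoters.

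Groups came from the titles. Epicardial and fibroblast counts were summed per library and given as CPM. The fibroblast gate took nuclei under the cardiomyocyte limit with at least 3 UMIs from at least 2 of 8 fibroblast genes. They also had to hold fewer than 2 UMIs over the epicardial gate genes. Tests were edgeR 4.0.16 (TMM, quasi-likelihood, Benjamini-Hochberg, R 4.3.3) on sums passing edgeR's filter on low counts, with DESeq2 1.42.0 as an alternative. Shares have exact (Clopper-Pearson) 95% binomial intervals (scipy 1.17.1). Doublets were kept, and an alternative left out those called by Scrublet (scanpy 1.11.5) per library, by its top scores at 0.8% per 1000 nuclei where its own threshold marked under 0.5%. These were 15, 16, 22 and 12 of the epicardial nuclei. The fits were tested on simulated data.

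The members and the 31 gene lists (576 genes) were chosen with earlier results of these data known. Genes named are, per direction, the 12 of smallest adjusted p for the vector, the 12 of largest fold at 100 CPM or more against fibroblasts, the 8 of smallest p for the difference between populations, the 8 of largest shared single-library fold, and list members. Gate genes, Xist, Tsix, Y-linked and mitochondrial genes were not named. Alternatives were other normalizations, filters, gates, tools and blocks, and each library left out.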

Additional observations from a re-analysis of the deposited data

Results flagged for a closer look

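The vector effect differed between epicardial and fibroblast nuclei for 11 of the genes that passed the test in epicardial nuclei, by edgeR's test of the difference itself. The difference in log2 fold, epicardial minus fibroblast, was 4.40 for Adam23, 2.95 for Itgbl1, 2.94 for Nalcn, 1.82 for Fibin, 1.68 for Angptl7, 1.35 for Pdzd2, 1.21 for Lbh and 1.16 for Ncam1. It was -1.81 for Rps6ka2, -1.51 for Tango6 and -0.89 for Sdk1. All 11 pairs of values come from the same 4 libraries, 1 of which, YAP5SA on chow, differs from the others in Xist and Ddx3y. The genes were picked on the same epicardial sums that enter the test of the difference, so their direction is in part built in.

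The share of epicardial nuclei was higher with YAP5SA than in the control on chow by 1.32 percentage points and lower on HFD by 2.47 percentage points (-2.47). The directions are opposite, and the difference between the diets was not tested, since each group is 1 library.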

How the results depend on the processing

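The share of epicardial nuclei kept its order within each diet under the alternatives tried. With at least 1000 genes and at most 1% mitochondrial UMIs it was 0.969%, 1.95%, 2.54% and 1.29%, and of nuclei under the cardiomyocyte limit 5.98%, 9.49%, 7.70% and 4.04%. With at least 5 gate UMIs it was 3.07% in YAP5SA on chow and, on HFD, 3.74% in the control and 1.51% with YAP5SA. In the control on HFD it was 3.69% with at least 3 gate genes, 3.80% with cardiomyocyte genes under 0.2%, and 3.49% thinned to 2000 UMIs, where YAP5SA on chow stood at 3.06%. The cycling shares fell to 19.8%, 12.8%, 15% and 11.4% on thinning.

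For YAP5SA against control, 17 and 9 genes passed. The counts were 0 and 0 with the stricter nucleus filter (9024 genes tested), 6 and 1 without doublets, 34 and 16 by DESeq2, 50 and 23 with diet as a block, 250 and 147 with no filter on low counts, and 78 and 57 without nuclei holding markers of the 6 other cell types named above (endocardial and fibroblast markers were allowed). Leaving out 1 library gave 50 to 217 and 36 to 103, where the lone library of an arm is assumed to vary like the others. Over 337 recomputed values of the 26 genes none changed sign and 64 missed the threshold. The cause of these changes was not tested. An alternative without nuclei holding markers of any other type, fibroblasts included, could not be run, because 125, 290, 345 and 180 of the epicardial nuclei hold fibroblast markers.

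The diet test called 15 and 23 genes with no filter on low counts and 0 to 5 in each direction with 1 library left out. With 1 library left out the diet fold of Nppb ran from -2.70 to 0.18, turning without YAP5SA on chow. The interaction gave 57 and 32 genes by DESeq2. With 1 library left out it ran from -0.15 to 2.20 for Col8a1, from -0.78 to 0.53 for Bdnf, from -0.41 to 0.11 for Ccn2 and from -0.0093 to 0.71 for Cdh12. With at least 5 gate UMIs it turned to -0.24 for Col8a1, 0.055 for Bdnf and -0.33 for Sorbs2os. None of these 5 passed with all libraries and the values as reported, and Col8a1 passed without the control on HFD.

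Single-library counts at 2-fold under the stricter nucleus filter were 194 higher and 169 lower for YAP5SA on chow, 124 lower for YAP5SA on HFD, 160 higher and 99 lower for diet in controls, and 81 lower for diet with YAP5SA. Without doublets 67 were higher for diet in controls. No paired analysis was possible because of missing replicate numbers, with 1 library a group. Pairing by titled diet is the diet block above, and the comparison with fibroblasts pairs populations within a library.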
